A study of Mus musculus with 8 samples.

Results

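The genes of 3 FoxO transcription factors (Foxo1, Foxo3 and Foxo6) and of 2 muscle atrophy ligases (Fbxo32 and Trim63) were examined for H3K56ac, a histone mark in which lysine 56 of H3 carries an acetyl group, in mouse muscle stem cells (MuSCs). These genes were chosen by name and make up 5 of the 21938 protein-coding genes on the assembled chromosomes in GENCODE vM21. Their loci were defined as the annotated gene plus 20 kb on either side on the mm10 build. A total of 80 peaks of the 105600 in the merged list overlapped these loci by at least 1 bp, of which 65 lay at the FoxO genes and 15 at the ligase genes.

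The study profiled H3K56ac by ChIP-seq in freshly isolated MuSCs of C57BL/6 mice to learn where the mark is located and how loss of the deacetylase SIRT6 alters it. The paper calls the Control cells of these data wild type, and elsewhere shows Sirt6mKO controls with floxed Sirt6 and no Cre. The Sirt6mKO animals carried floxed Sirt6 alleles together with Pax7-ICNCre, and were bred with a ROSA26-YFP strain. In Pax7-ICNCre the Pax7 promoter drives a constitutive Cre recombinase. Deletion therefore reaches the muscle fibres formed from Pax7-positive cells as well as the MuSCs. Each genotype had 2 libraries of H3K56ac and 2 of input, which is chromatin sequenced before any immunoprecipitation, so that 8 libraries formed 4 groups. Neither the age of the mice nor any pooling of them is given in the labels. The paper's legend to the figure with these data names male mice and gives an age range in weeks. The merged list holds positions only and names no library, so a peak may come from Control mice, from Sirt6mKO mice or from both, and these origins cannot be told apart. The paper reports a global increase of H3K56ac peaks in Sirt6mKO MuSCs, and describes peaks after Sirt6 loss as broader than those of other marks. Widths and covered shares below therefore need not hold for Control mice alone. The list consequently gives no replicate values, no depth behind a peak and no error on any value below. The listed intervals were compared with the annotation, and no test of the genotypes was possible.

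FoxO proteins are forkhead transcription factors. Insulin and growth factor signalling excludes those of Foxo1 and Foxo3 from the nucleus through phosphorylation by AKT. When signalling is low they enter the nucleus, bind elements containing GTAAACA and activate genes of cell cycle arrest, stress resistance and autophagy, and in MuSCs they are known for maintaining quiescence. In muscle fibres they activate Fbxo32, which encodes atrogin-1, the substrate-binding subunit of an SCF ubiquitin ligase, and Trim63, which encodes MuRF1, a RING-finger ubiquitin ligase of the sarcomere, and both ligases mark proteins for the proteasome during atrophy.

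The start-site sequences are shown first because they carry a contrast of Foxo1 and Foxo3 with Trim63 that the peaks at the start also show. In the peaks this contrast did not extend to Fbxo32, which had a peak of 5008 bp over its start. The RefSeq promoter table (GRCm38.p6, 250 bases before to 50 bases after the start) held 3 of the 5 members, and Foxo6 and Fbxo32 had no entry. The sequences run 5′ to 3′ along the gene, with each CG dinucleotide in capitals. The Foxo1 sequence is chr3:52268087-52268386 on the plus strand, the Foxo3 sequence is chr10:42276646-42276945 on the minus strand, and the Trim63 sequence is chr4:134314870-134315169 on the plus strand.
Foxo1: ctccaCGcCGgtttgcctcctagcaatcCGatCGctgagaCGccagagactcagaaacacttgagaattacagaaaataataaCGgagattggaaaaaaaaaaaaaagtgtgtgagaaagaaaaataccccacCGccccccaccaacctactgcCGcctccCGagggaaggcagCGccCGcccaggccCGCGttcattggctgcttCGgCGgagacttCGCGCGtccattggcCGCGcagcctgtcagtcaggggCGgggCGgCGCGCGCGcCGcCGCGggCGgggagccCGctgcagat
Foxo3: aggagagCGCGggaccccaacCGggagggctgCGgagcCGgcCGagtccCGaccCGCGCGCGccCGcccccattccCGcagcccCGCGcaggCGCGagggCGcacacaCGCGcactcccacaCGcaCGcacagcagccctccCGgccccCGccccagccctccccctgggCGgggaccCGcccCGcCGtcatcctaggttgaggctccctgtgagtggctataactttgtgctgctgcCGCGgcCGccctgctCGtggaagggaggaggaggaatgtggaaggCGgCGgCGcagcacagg
Trim63: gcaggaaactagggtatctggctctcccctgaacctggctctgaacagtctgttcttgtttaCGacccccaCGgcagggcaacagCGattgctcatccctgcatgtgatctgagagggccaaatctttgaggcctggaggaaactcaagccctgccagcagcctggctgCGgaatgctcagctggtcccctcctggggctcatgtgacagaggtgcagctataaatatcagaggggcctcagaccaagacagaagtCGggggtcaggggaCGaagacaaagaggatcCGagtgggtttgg
The Foxo1 sequence held 31 CG dinucleotides, more than 89.4% of the 32851 promoters in the table. Foxo3 held 35, more than 93.0% of promoters, and its GC content was 75.0%. Trim63 held 7, which equals the median of 7 over all promoters. All 300 bases of the Foxo1 and Foxo3 sequences lay inside a peak, whereas the Trim63 sequence held no peak base and its nearest peak was 2553 bp away.

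Foxo1, a FoxO factor known from metabolism and MuSC quiescence, was covered by H3K56ac peaks over most of its length. The gene (ENSMUSG00000044167.6, chr3:52268336-52353221, plus strand) spans 84886 bp, of which 86.2% was covered, and the locus with its flanks held 27 peaks over 69.6% of its bases. The peak over the transcription start site (TSS) was 15728 bp wide (chr3:52265761-52281488) and reached from position -2575 relative to the TSS to position 13152 inside the first intron. It was followed after a 2176 bp peak by an intronic peak of 16237 bp, the widest of all 80. In width both wide peaks exceeded 99.8% of all merged peaks. An antisense transcript, Gm20402, starts 1099 bp inside the gene under the TSS peak. Another annotated gene, Gm38034, starts 13905 bp inside, within 3 kb of the 2176 bp and the 16237 bp peaks. Without all peaks within 3 kb of the start of another annotated gene, these included, the locus was covered over 41.8%.

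Most of the covered sequence of Foxo1 was intronic. Intron 1, which is 75616 bp long and separates the first exon from the remaining coding sequence, held 16 peaks over 91.5% of its bases. Exon 1 was covered in full, exon 2 held no peak base and exon 3, which includes the 3′ UTR, was covered over 41.3%. The series continued past the 3′ end, where a peak of 4158 bp began 85791 bp from the TSS. The downstream 20 kb was covered over 43.1% and the upstream 20 kb over 25.8%. Between 20 and 50 kb from the gene there were 0 peaks upstream and 7 downstream, so the asymmetry extended beyond the flank that was counted.

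Foxo3, the family member whose loss is known to impair MuSC quiescence, was covered to a like degree. The gene (ENSMUSG00000048756.11, chr10:42181841-42276755, minus strand) spans 94915 bp, of which 85.2% was covered, and the locus held 25 peaks over 67.7% of its bases. Its TSS peak was narrower than that of Foxo1, at 5227 bp (chr10:42274043-42279269), and included exons 1 and 2. A second annotated start inside the gene lay under a peak of 10194 bp (chr10:42251526-42261719), and the widest peak was an intronic one of 13459 bp. In contrast to Foxo1, where 1 TSS is annotated, Foxo3 has 5 annotated TSS positions, and 2 of its peaks lay over one of them.

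The Foxo3 peaks were separated by short gaps. When peaks less than 1 kb apart were joined, the 25 peaks became 4 regions and the widest spanned 52038 bp. The 27 peaks of Foxo1 became 10 regions, the widest of 35017 bp. Coverage of Foxo3 stopped short of the gene's end, since the last exon of 4455 bp held no peak base and the introns were covered over 90.0%. Upstream of the TSS a stretch of 17486 bp without a peak ran to the edge of the locus, and the upstream 20 kb was covered over 12.6% against 40.3% downstream. Both long FoxO genes thus had more covered sequence downstream than upstream, and for Foxo3 dense coverage resumed farther out, with 71.0% covered between 50 and 100 kb downstream.

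Foxo6, a FoxO factor known mainly from brain, was covered less. The gene (ENSMUSG00000052135.8, chr4:120267079-120287349, minus strand) spans 20271 bp, of which 61.6% was covered, and the locus held 13 peaks over 41.3% of its bases. Its widest peak was the TSS peak of 5673 bp, which reached upstream to position -4641 and also covered the start of the antisense transcript Foxo6os. A neighbouring peak of 1742 bp lay 650 bp from the Foxo6os start, so the peaks upstream of Foxo6 cannot be assigned to one of the 2 genes. Exon 1 was covered in full and exon 2 over 69.2%, while the intron was covered over 59.6%, so that Foxo6 was the 1 member in which exons were covered more than introns. The outermost downstream peak crossed the edge of the locus, its midpoint falling outside.

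Fbxo32 had a wide promoter peak and fewer covered bases in the gene. The gene (ENSMUSG00000022358.7, chr15:58175879-58214932, minus strand) spans 39054 bp, of which 36.3% was covered, and the locus held 12 peaks over 21.3% of its bases. The TSS peak of 5008 bp (chr15:58211508-58216515) was the widest and reached from position -1583 to position 3424 relative to the TSS. The start of an antisense transcript, Gm15943, lies 457 bp inside the gene under the same peak. A second group of 8 peaks lay in the gene between 9624 and 27932 bp from the TSS, in introns and over exon 4, and ranged from 562 to 2341 bp. The 3′ end was free of peaks, since exons 5 to 9 held no peak base, and exons as a whole were covered over 7.60% against 42.5% of introns.

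Trim63 was the member with the fewest peaks and had none in the gene. The gene (ENSMUSG00000028834.13, chr4:134315120-134329629, plus strand) spans 14510 bp, and its locus held 3 peaks over 5.86% of its bases. Peaks of 531 and 1417 bp lay upstream, and the nearer ended 2803 bp before the TSS. The other, of 1244 bp, lay downstream over the start of the neighbouring zinc transporter gene Slc30a2, and without it the locus was covered over 3.57%. A stretch of 30336 bp without any peak (chr4:134312318-134342653) held the TSS, all 9 exons and the adjoining part of the 3′ flank. Peaks were nevertheless present farther out, with 2 between 20 and 50 kb upstream and 5 between 20 and 50 kb downstream, which covered 18.5% and 27.9% of those bases.

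**Figure D1:**
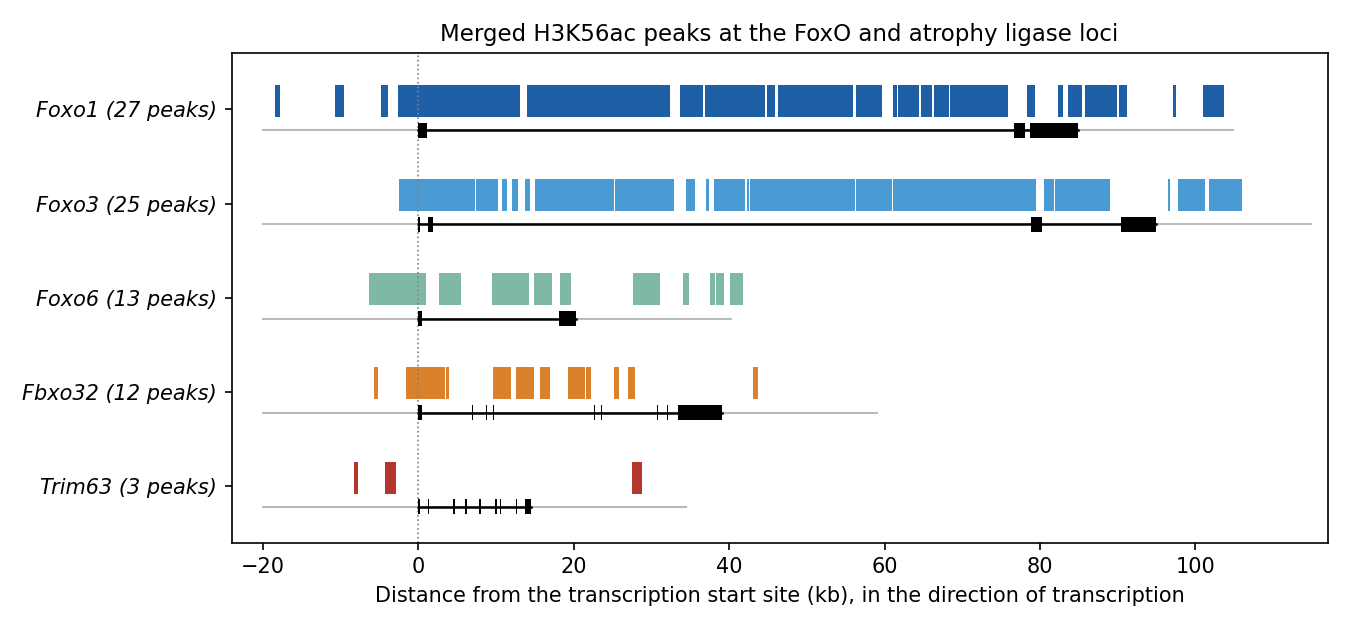
Merged H3K56ac peaks (coloured blocks) by distance from the TSS in kb for the 5 loci, with the gene as a black line, exons as black boxes and the 20 kb flanks as grey lines. Foxo1 (27 peaks) and Foxo3 (25 peaks) are covered over most of the gene (86.2% and 85.2%), Foxo6 (13 peaks) and Fbxo32 (12 peaks) in separate groups, and Trim63 (3 peaks) has no peak in the gene.

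The members were then set beside all protein-coding genes, which is a description and not a test because genes are not replicates. The median protein-coding gene had 4 peaks at its locus, with 9.53% of the locus and 7.82% of the gene covered. By covered share of the locus Foxo1 stood at percentile 99.6, Foxo3 at 99.6 and Foxo6 at 95.0. Fbxo32 stood at percentile 76.2 and Trim63 at 39.0. The FoxO genes therefore lay in the upper tail, Fbxo32 above the median and Trim63 under it.

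Gene length did not alter this order. Compared with genes whose length differed by at most 20%, the percentiles were 99.5 for Foxo1, 99.4 for Foxo3 and 95.9 for Foxo6. They were 80.4 for Fbxo32 and 28.5 for Trim63, which moved farther from the median. The 3 peaks of the Trim63 locus compare with a median of 4 over genes of like length, whereas its gene had 0% covered beside a median of 12.2% for those genes.

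**Figure D2:**
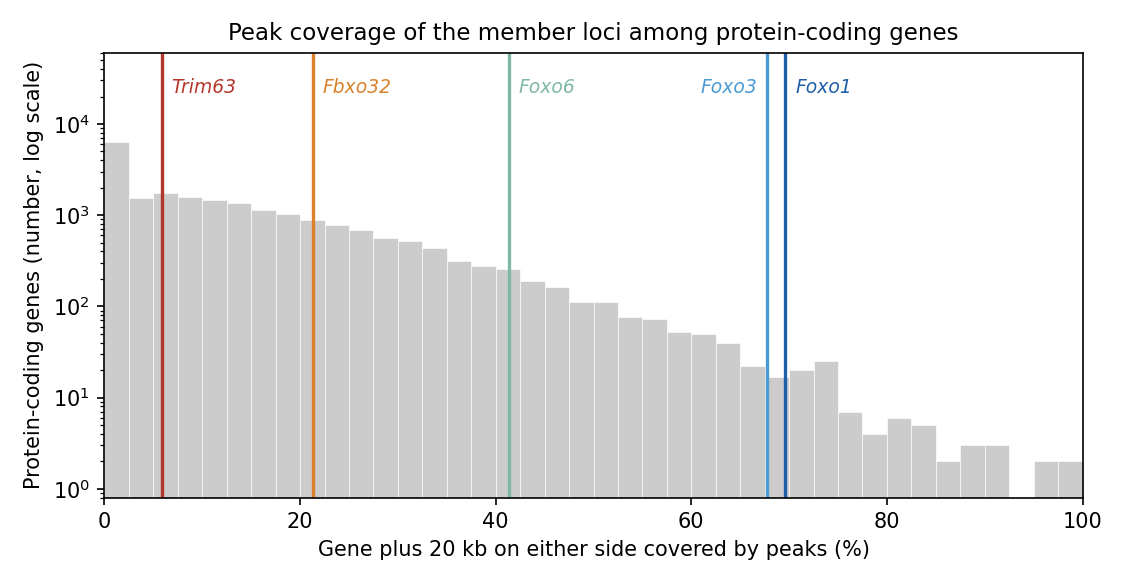
Distribution of the covered share of the locus (gene plus 20 kb on either side, %) over 21938 protein-coding genes (grey bars, number of genes on a log scale), with the 5 members as coloured lines. Foxo1 (69.6%) and Foxo3 (67.7%) lie in the sparse right tail, Foxo6 (41.3%) and Fbxo32 (21.3%) above the median of 9.53%, and Trim63 (5.86%) under it.

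A peak within 3 kb of a TSS was found at 5 of 5 members, against 67.8% of protein-coding genes. Within 1 kb of a TSS the count was 4 of 5 against 65.4%, and directly over a TSS it was 4 of 5 against 62.1%, with Trim63 the exception in both. A peak in the gene was likewise present at 4 of 5 members, against 69.1% of protein-coding genes. These counts are near the background share, so the presence of a promoter peak did not set the members apart. Peaks of 10 kb or wider were rarer, and occurred at Foxo1 and Foxo3, 2 of 5 members, against 4.69% of protein-coding genes. That share is over loci of all lengths, whereas the Foxo1 and Foxo3 loci are long, at 124886 and 134915 bp, and a share over loci of like length was not computed.

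The FoxO genes were covered more than the atrophy ligase genes, though 3 genes against 2 allow no test. The mean covered share of the locus was 59.6% for the FoxO genes, with a lowest value of 41.3%, and 13.6% for the ligase genes, with a highest value of 21.3%. The difference was 46.0 percentage points. Over all protein-coding genes the median was 9.53% and the upper quartile 20.55%, so the Fbxo32 locus also lay above that quartile. Foxo4, which is not a member, was at 22.6%, close to Fbxo32. Within the genes alone the means were 77.6% and 18.1%. Peak density differed less than coverage, at 2.06 peaks per 10 kb for the FoxO genes and 1.03 for the ligase genes, and the pooled median peak width was 1710 bp against 994 bp. Peak width did not separate the genes one by one, since the median was 1120 bp at Foxo1 and 1244 bp at Trim63.

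The contrast between the genes changed with the distance from the TSS. From the TSS to 5 kb inside, coverage was 100% at Foxo1, 99.8% at Foxo3 and 66.7% at Foxo6. Fbxo32 was covered over 76.0% of the same stretch, more than Foxo6, and Trim63 over 0%. At this distance Fbxo32 was therefore within the range of the FoxO genes.

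Between 5 and 20 kb each FoxO gene was covered more than Fbxo32, by amounts that differed between the bands, and Trim63 was at 0%. Between 5 and 10 kb coverage was 100% at Foxo1, 97.9% at Foxo3, 20.8% at Foxo6 and 7.52% at Fbxo32. The mean of all protein-coding genes over that band was 12.8%, so Fbxo32 fell under it. Between 10 and 20 kb, coverage at Fbxo32 was 63.3%, from its intronic peaks, beside 91.2% at Foxo1, 73.5% at Foxo3 and 81.1% at Foxo6. The intronic group of peaks at Fbxo32 thus stood well above the mean of 11.1% for protein-coding genes.

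**Figure D3:**
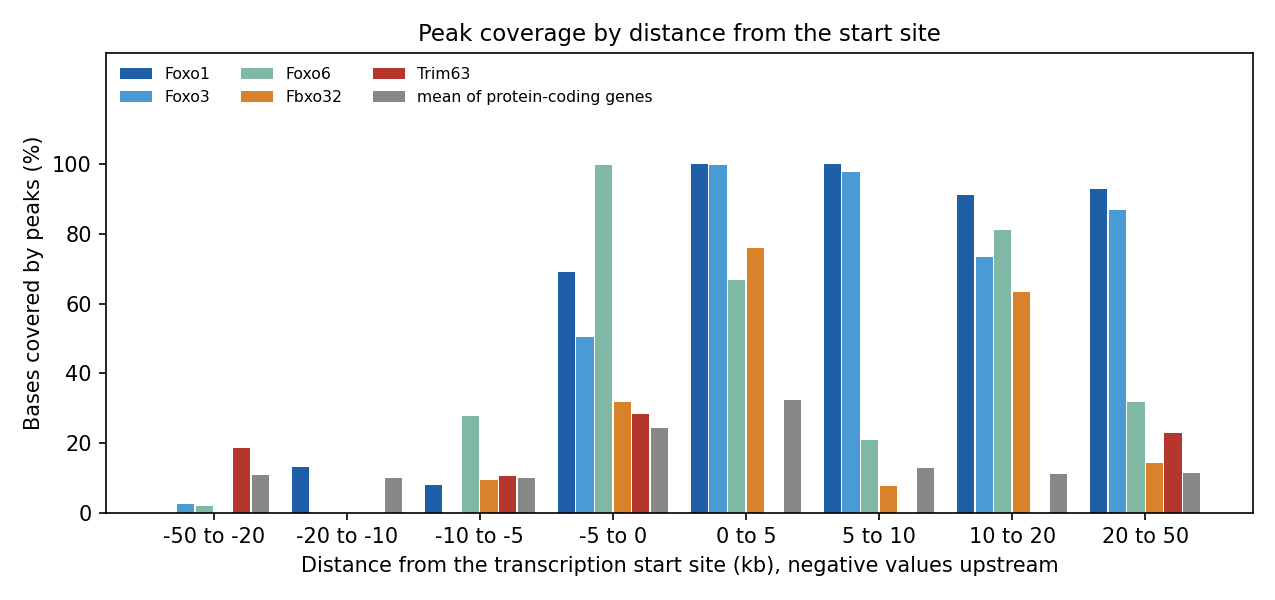
Share of bases covered by peaks (%) in bands of distance from the TSS (kb) for each member and, in grey, the mean over protein-coding genes. Foxo1 and Foxo3 stay above 70% in each band from 0 to 50 kb, Fbxo32 has a gap between 5 and 10 kb (7.52%), and Trim63 is at 0% from 0 to 20 kb.

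The FoxO element GTAAACA was searched on both strands, because FoxO factors are known to act on their own family and on the ligase genes. It was present in 3.65% of the 32851 RefSeq promoters. The Trim63 promoter held the element at position -194 relative to the TSS, together with the E-box CAGCTG at position -72, a motif found in 16.3% of promoters. The Foxo1 and Foxo3 promoter entries held neither, and none of the 3 held the AP-1 element TGANTCA, found in 7.81% of promoters. The 3 motifs do not overlap one another in these windows. A match describes letters only.

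Copies near the TSS of Foxo1, Foxo3 and Trim63 are printed to show elements inside and outside peaks. Each is given 5′ to 3′ on the strand that reads GTAAACA, in capitals, with 10 flanking bases. The Foxo1 copy (chr3:52268054-52268080, plus strand) lies at position -272 and the Foxo3 copy (chr10:42278267-42278293, minus strand) at position -1531, and both lie in the TSS peak. The Trim63 copy (chr4:134314916-134314942, minus strand) is the one at position -194 and lies in no peak.
Foxo1: gcactctgtaGTAAACAaaagtatggt
Foxo3: acgtgtgctgGTAAACAagcgcgccag
Trim63: cgtgggggtcGTAAACAagaacagact
Over the Foxo1 locus the element occurred 19 times, with 14 copies in peaks. Foxo3 held 17 copies with 14 in peaks, and Trim63 held 9 copies with 0 in peaks. Foxo6 had 3 copies with 1 in a peak, and Fbxo32 had 15 with 4 in peaks. At Foxo1 and Foxo3 most copies lay in peaks, as did most bases of the locus.

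Per kb of peak, the element was about as frequent at the long FoxO genes as over all peaks. There were 0.161 copies per kb of peak at Foxo1 and 0.153 at Foxo3, beside 0.150 over all 105600 peaks. Foxo6 had 0.0401, a value that rests on 1 copy. Fbxo32 had 0.238 copies per kb of peak, a value that rests on 4 copies. The E-box occurred at 0.883 copies per kb of peak at Foxo6, above 0.609 over all peaks, and at 0.426 at Foxo1, under it. Bases in peaks were less often repeat-masked than the remainder of the locus at all 5 members, for example 17.8% against 28.9% at Foxo1 and 21.0% against 38.0% at Trim63. The same held over the whole list, with 19.4% of bases in all peaks masked against 36.4% over the assembled chromosomes, so it is not particular to these loci. The list was made from reads with a single alignment, which disfavours peaks in repeats, and the part of this in the values was not tested.

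Further genes of the pathway were counted from lists by role, beside the 67.8% of protein-coding genes that had a promoter peak. Of the 16 FoxO relatives and regulators, 16 had a promoter peak, with a median covered share of the gene of 21.2%. Foxo4, the remaining FoxO gene, was covered over 80.2% of its 6346 bp, and the 4 FoxO genes of the mouse ranged from 61.6% to 86.2% by this measure. By covered share of the locus Foxo4 was lower than the other FoxO genes, at 22.6%, close to the 21.3% of Fbxo32, so the contrast between FoxO and ligase loci did not extend to Foxo4. The widest promoter peak in the list was 18948 bp at Akt2, which encodes a kinase that phosphorylates FoxO proteins.

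The FoxO target genes carried wider promoter peaks. Of 15 genes for cell cycle arrest, stress resistance and metabolism, 15 had a promoter peak, and the median width of the widest one per gene was 7400 bp, beside 3430 bp over protein-coding genes with a promoter peak. The widest was 23863 bp at Sesn1, a stress-induced inhibitor of mTORC1 signalling, and the narrowest was 2556 bp at the CDK inhibitor gene Cdkn1a. In 6 of the 15 genes the covered share of the gene was at or above the 61.6% of Foxo6, which is reached by 6.85% of protein-coding genes. These were, named after their values were seen, Cdkn1b, Gadd45a, Cited2 and Txnip with 100% each, Klf15 with 91.2% and Irs2 with 82.7%. The genes at 100% are short, from 2362 bp at Gadd45a to 5113 bp at Cdkn1b, and the background share is over genes of all lengths. Their loci were covered over 27.9% at Gadd45a, 30.2% at Cited2, 42.5% at Txnip and 45.8% at Cdkn1b, so that Txnip and Cdkn1b but not Gadd45a and Cited2 reached the 41.3% of the Foxo6 locus. Cdkn1b encodes the CDK inhibitor p27, and Irs2 an adaptor of the insulin receptor.

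Autophagy genes had narrower promoter peaks than the FoxO targets by the median. All 12 had one, with a median width of 4873.5 bp, beside a median of 3430 bp and an upper quartile of 4945 bp over protein-coding genes with a promoter peak. The median covered share of the gene was 22.2%, beside 7.82% over protein-coding genes, and none reached the covered share of Foxo6. Sqstm1, which encodes the autophagy receptor p62, had the widest at 9488 bp, and Pik3c3, which encodes a lipid kinase of autophagy initiation, the narrowest at 2473 bp.

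Among 14 other ubiquitin ligases of muscle and paralogs of the members, 12 had a promoter peak. The genes without one were Trim54 and Trim55, which encode MuRF3 and MuRF2, the closest relatives of MuRF1. Both also had 0% of the gene covered, so that the 3 MuRF genes were alike in having no peak in the gene, and among the 67 pathway genes Trim54 and Trim55 were the 2 with no peak there. Over all protein-coding genes 69.1% had a peak in the gene, so its absence is common and not particular to the MuRF genes. Fbxo25, the closest relative of Fbxo32, had a promoter peak of 2852 bp and 8.07% of the gene covered, less than the 36.3% of Fbxo32. The widest promoter peak of the list was 12952 bp at Asb2, a SOCS-box ligase subunit of muscle, and the narrowest was 1381 bp at Fbxo40, an F-box gene known from muscle.

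The partners and substrates of the ligases varied widely in coverage. All 10 had a promoter peak, and 9 had a peak over a TSS, with Ckm, which encodes muscle creatine kinase, the exception. The widest was 11566 bp at Cul1, which encodes the scaffold of the SCF ligase that atrogin-1 joins, and the narrowest was 999 bp at Myl2, which encodes a myosin light chain that MuRF1 degrades. Among the substrates, Myod1, the myogenic factor that atrogin-1 targets, was covered over 96.4% of its gene, whereas Myh4, a fast myosin heavy chain gene, was covered over 0.446%. The Myod1 gene is short, at 2626 bp, and its widest promoter peak was 2720 bp. By covered share of the locus Myod1 was not above Myh4, at 11.2% against 13.6%.

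**Figure D4:**
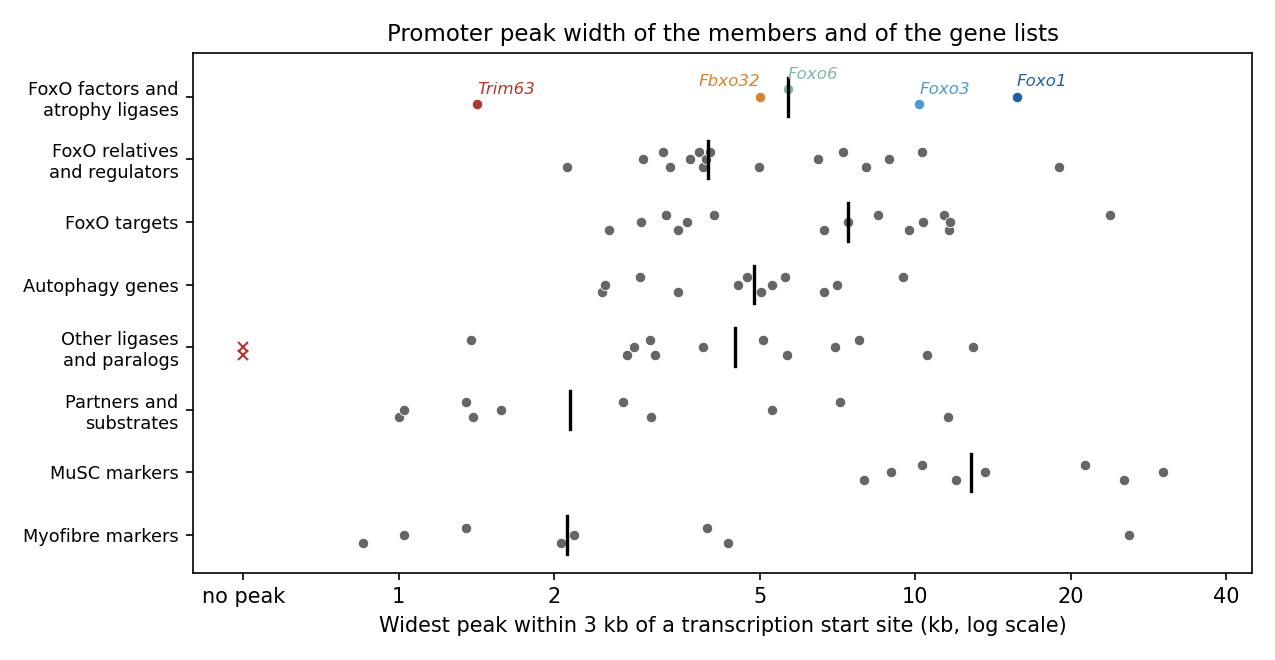
Width of the widest peak within 3 kb of a TSS (kb, log scale) for the members and each list, with 1 point per gene, the median of genes with a peak as a black bar and crosses for genes without one. FoxO targets have a median of 7400 bp and partners and substrates one of 2150.5 bp, and the 2 crosses are Trim54 and Trim55.

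Genes whose pattern of coverage was most like that of a member were sought among protein-coding genes of a length within 20% of its own, by Pearson correlation over 80 bins along the flanks and the gene. Neighbouring bins share peaks, so these values are a description. Foxo1 was most like Susd6 (r = 0.68) and next Foxo3 (r = 0.59) among 1227 genes. Foxo3 was most like Mdfic (r = 0.67) and Fam53b (r = 0.66). Thus 1 FoxO gene was among the 2 genes most like another.

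For the smaller members the nearest patterns came from other families. Foxo6 was most like Plekha3 (r = 0.51) and Bmf (r = 0.49), the lowest values of the 5 members. Fbxo32 was most like Cnot6 (r = 0.69) and Emp2 (r = 0.67). Trim63 was most like Zfp626 (r = 0.63) and Tex45 (r = 0.59), each also with 0% of the gene covered.

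The labelled cell type was checked against marker genes. All 8 MuSC markers had a peak over a TSS, with a median promoter peak of 12834.5 bp. Their covered share of the gene had a median of 70.0% and ranged from 30.2% at Itga7 to 100% at Myf5. In 4 of the 8 it was at or above the 61.6% of Foxo6, which is reached by 6.85% of protein-coding genes. Of 8 myofibre markers, 8 had a peak within 3 kb and 4 over a TSS, with a median promoter peak of 2121.5 bp. Over protein-coding genes 67.8% had a peak within 3 kb and 62.1% over a TSS. The median width over those with a promoter peak was 3430 bp. The myofibre marker Mb, which encodes myoglobin and was named after its values were seen, had a promoter peak of 25949 bp and 81.7% of its gene covered. Of the ligases of fibres, Fbxo32 had a peak over its TSS and Trim63 had none. Endothelial, fibro-adipogenic and smooth muscle markers had a peak over a TSS at 3 of 4 genes each, tendon and Schwann markers at 1 of 2 each, and immune markers at 0 of 4. Counts of 3 of 4, 4 of 8 and 1 of 2 are near the share of 62.1% over protein-coding genes, so they do not set these cell types apart. A peak at a marker does not measure how many cells of a type were present, and the part of other cells in the members' peaks was not tested.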

How the data were processed

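H3K56ac ChIP-seq libraries and matching inputs of FACS-isolated MuSCs were described by the labels as 2 replicates for each of 4 groups. The authors trimmed reads with Trim Galore, aligned them to mm10 with bowtie keeping single alignments, removed duplicates with Picard, called peaks with MACS2, removed blacklisted regions and merged overlapping peaks with GenomicRanges; the submitters' processing notes also name FastQC, SAMtools and deepTools, without versions. The material used was one deposited list of chromosome, start and end. The score column deposited by the authors held 0 throughout and was not used. With 0 columns of per-sample values, the list gives no depth behind a peak, and no count test could be made. Merging widens and fuses intervals, so numbers and widths describe the union.

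Positions were converted to count from 1 and compared with GENCODE vM21 using Python 3.11.15 and numpy 2.4.6, and figures were drawn with matplotlib 3.10.9. A peak belonged to a locus when it overlapped the gene plus 20 kb by at least 1 bp. Promoter peaks lay within 3 kb of any annotated TSS. Percentiles give the share of other protein-coding genes with a lower value. Motifs were counted on both strands of GRCm38, and repeat-masked bases are those in lower case there. The members, gene lists, markers and motifs were chosen with earlier results of these data known. In each list the genes with the widest and the narrowest promoter peak and those without one are named, except for 1 gene that is not reported here, and for each member the 2 genes of highest correlation. Alternatives were other flanks, a minimum width of 500 bp, joining of peaks less than 1 kb apart, peak midpoints, narrower promoters, other length windows, and leaving out peaks near other genes or each member in turn. Leaving out peaks near other protein-coding genes alone was chosen after seeing the data. The interval functions were tested on simulated data, where coverage and number of peaks were correct in all 400 windows.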

Additional observations from a re-analysis of the deposited data

How the results depend on the processing

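No paired analysis was possible because positions alone were listed, without a value for any replicate. The FoxO loci stayed more covered than the ligase loci under each alternative tried. The difference of 46.0 percentage points became 59.5 without flanks, 58.1 with flanks of 3 kb and 25.6 with flanks of 50 kb, where the covered share of the Trim63 locus was 14.9%. It was 45.4 with peaks of at least 500 bp and 49.1 with peaks less than 1 kb apart joined, and joining left 30 of the 80 peaks by its construction. It was 36.9 without peaks near the TSS of any other gene. That setting removed, among others, the TSS peaks of Foxo1, Foxo6 and Fbxo32, under which antisense transcripts start, and the widest Foxo1 peak, which lies near the start of Gm38034. The difference was 47.1 without peaks near another protein-coding gene, an alternative chosen after seeing the data. Leaving out 1 gene gave 41.0 without Foxo1, 41.9 without Foxo3, 55.1 without Foxo6, 53.7 without Fbxo32 and 38.3 without Trim63. The number of members with a promoter peak was 5, and 4 within 1 kb or over a TSS. The list limits every value, since neither peak height nor the error between replicates can be given.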
